A study of Mus musculus with 6 samples.

Results

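Dermal sheath contractile cells were taken from droplet-based 3′ single-cell RNA-seq of enzymatically digested mouse skin as barcodes that carried smooth muscle actin together with sheath transcripts. A barcode was a member if it had at least 5 unique molecular identifiers (UMIs, 1 per captured RNA molecule) of Acta2, at least 2 UMIs in sum of Actg2, Casq2 and Stmn2, at least 1 UMI of Lrrc15, a membrane protein of TGF-beta-exposed fibroblasts, none of the pericyte gene Rgs5 and none of the endothelial genes Pecam1 and Cdh5. These 3 sheath genes (Actg2, Casq2 and Stmn2) are called the trio here. Of 38206 deposited barcodes, 25772 had at least 300 genes and at most 15% mitochondrial UMIs, and 264 of those were members. Of the members, 152 came from the EC-OVA libraries (53, 47 and 52) and 112 from the EC-SAL libraries (41, 30 and 41).

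The EC-OVA group holds 3 libraries labelled OVA-sensitized and the EC-SAL group 3 libraries labelled control, all from Balb/c mice. Per the labels, sensitization through the skin lasted 10 days and the skin was taken 2 days after it. The labels call the tissue sensitized skin in the controls too and give the cell type as CD4 for all 6 libraries, although collagen-producing, epithelial and vascular cells were all present. They do not say whether the libraries of a group came from separate mice or whether mice were pooled, so the p-values below measure only the spread between libraries. No member barcode was shared between libraries.

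The dermal sheath is the connective tissue layer that wraps the hair follicle below the opening of the sebaceous gland, and it is continuous with the dermal papilla at the follicle base. Its inner layer has a smooth-muscle-like contractile machinery, and in mice its contraction, driven by endothelin and calcium signalling, draws the follicle base upward when the follicle regresses. The sheath also holds progenitors that renew sheath and papilla between hair cycles.

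The genes of the rule set the identity of the cells and are given as a description. Acta2, smooth muscle alpha-actin, was at 2907, 3628 and 2396 CPM (counts per 1000000 UMIs of the members of a library) in EC-OVA libraries 1 to 3, against 3691, 4761 and 3524 CPM in EC-SAL libraries 1 to 3. Actg2, smooth muscle gamma-actin, was at 472, 429 and 308 CPM in EC-OVA, against 502, 673 and 462 CPM in EC-SAL, and had at least 1 UMI in 75.7% of EC-OVA and 82.1% of EC-SAL members. Casq2, a calcium-binding protein of the sarcoplasmic reticulum, was found in 54.0% of EC-OVA and 61.6% of EC-SAL members, and Stmn2, a microtubule regulator of the stathmin family, in 90.8% and 86.6% of the same groups. Of the sheath genes outside the rule, Igfbp2, a binding protein of insulin-like growth factors, was found in 88.8% of EC-OVA and 92.0% of EC-SAL members, Tagln, an actin-binding smooth muscle protein, in 86.2% and 89.3%, and the endothelin receptor gene Ednrb in 55.9% and 65.2%. Each listed sheath marker was thus present, which the rule itself required for Acta2 and for the sum of Actg2, Casq2 and Stmn2. Igfbp2, Ednrb and Tagln were also found in the neighbouring classes defined next. Igfbp2 was found in 4.20% of EC-OVA and 6.73% of EC-SAL pericyte-rule cells but in 49.6% and 36.4% of the fibroblast-rule cells of the same groups. Ednrb was found in 47.5% of EC-OVA and 15.4% of EC-SAL pericyte-rule cells and in 1.43% and 0.680% of fibroblast-rule cells. Tagln was found in 64.7% of EC-OVA and 65.9% of EC-SAL pericyte-rule cells and in 12.5% and 12.2% of fibroblast-rule cells. The median depth was 10872 UMIs per member in EC-OVA and 8787 in EC-SAL, 4720 and 3328 UMIs per pericyte-rule cell and 7798 and 6588.5 UMIs per fibroblast-rule cell.

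**Figure D1:**
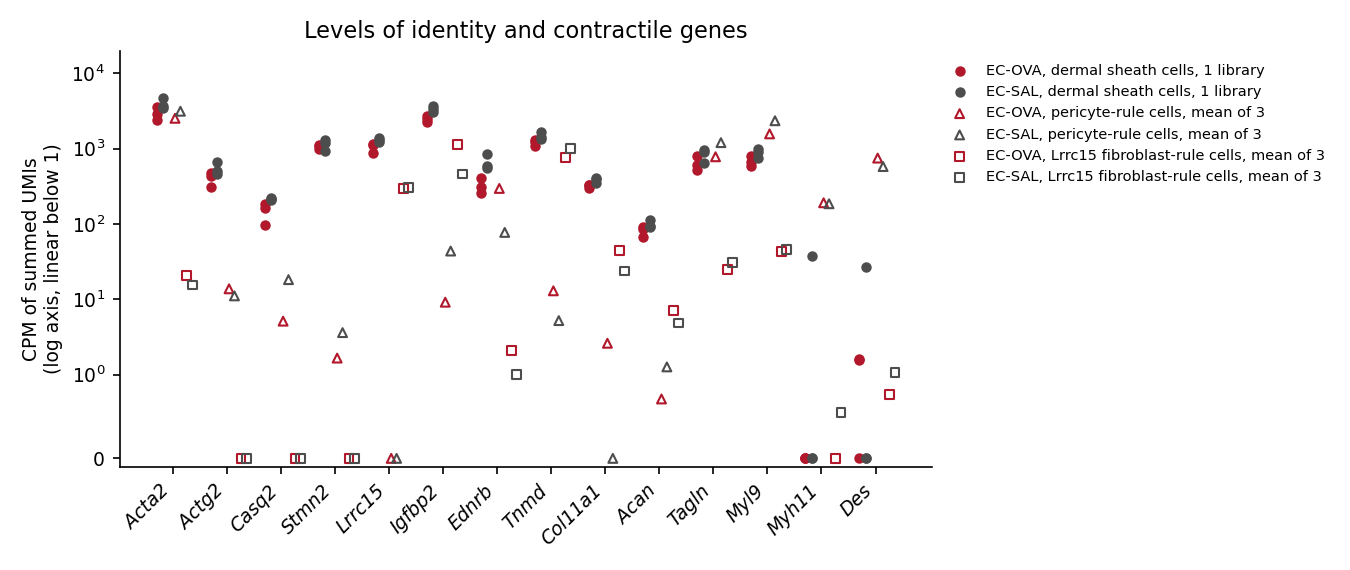
Levels of identity genes (vertical axis, CPM on a log axis), with EC-OVA points left of EC-SAL points. The members have a point per library, and pericyte-rule cells and Lrrc15 fibroblast-rule cells a mean of 3 libraries per group. Rule genes are shown as a description; Igfbp2 was not used in the rule and lay between 2284 and 3708 CPM in the members of every library.

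These neighbouring classes were also cut by rule. Pericyte-rule cells (446 barcodes, 238 in EC-OVA and 208 in EC-SAL) had at least 3 Rgs5 UMIs and 1 Acta2 UMI, no Lrrc15, at most 1 trio UMI and no endothelial UMI. Lrrc15 fibroblast-rule cells (782 barcodes, 488 and 294) had at least 1 Lrrc15 and 5 Col1a1 UMIs, at most 1 Acta2 UMI, and no UMI of the trio, of Rgs5, of the endothelial genes or of the leukocyte gene Ptprc. Of 2089 genes with at least 50 CPM in the members of every library, the largest ratios over the higher of these classes were, apart from the trio, in 2610307P16Rik (36.9 times), Acan (15.2 times), Col11a1 (10.4 times), Anxa8 (9.30 times) and Cdc42ep3 (8.71 times). In the rest of the suspension Anxa8 was as high, at 346 CPM on average against 331 CPM in the members. Acan encodes the large proteoglycan aggrecan and Col11a1 a minor fibrillar collagen, both best known from cartilage, and Anxa8 a calcium-dependent membrane-binding protein. Ncam1, a cell adhesion molecule of the immunoglobulin family, followed at 8.10 times, Thbs4, a thrombospondin, at 7.82 times, Cd200, a surface ligand that restrains myeloid cells, at 7.07 times, and Sox11, a transcription factor, at 6.32 times. All of these ratios describe cells that were chosen on expression and carry no test.

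The smooth muscle programme was partial. Myh11, the smooth muscle myosin heavy chain, had no UMI in the members of 5 libraries and 14 UMIs (38.0 CPM) in EC-SAL library 1. Desmin (Des), the intermediate filament of mature muscle, stayed at 1.61, 0 and 1.57 CPM in EC-OVA, against 27.1, 0 and 0 CPM in EC-SAL. The arrector pili marker list summed to 23.6 to 32.1 CPM in EC-OVA and 23.7 to 81.4 CPM in EC-SAL members, while it reached 849.6 to 1037 CPM in EC-OVA and 631.9 to 829 CPM in EC-SAL pericyte-rule cells. The pericyte marker list summed to 469.3 to 533.6 CPM in EC-OVA and 570.8 to 775.3 CPM in EC-SAL members. In pericyte-rule cells it summed to 8218 to 9735 CPM in EC-OVA and 8470 to 9604 CPM in EC-SAL. Of that list, Kcnj8, Abcc9 and Vtn were at 0 in the members. Ndufa4l2 had 486 UMIs in EC-OVA and 474 in EC-SAL members, and Cspg4 had 107 and 46. Endothelial markers summed to 42.2 to 65.9 CPM in EC-OVA and 35.5 to 52.8 CPM in EC-SAL members. Leukocyte markers summed to 23.6 to 512.7 CPM in EC-OVA and 9.90 to 30.8 CPM in EC-SAL members, with Ptprc at 0, and the highest of these values, in EC-OVA library 1, was mostly Cd74 (459.6 CPM), 91.6% of whose UMIs lay in 1 cell. Keratinocyte markers summed to 935.9 to 1457 CPM in EC-OVA and 1953 to 6514 CPM in EC-SAL members, and that list moved the same way in all other barcodes, at 18520 to 22030 CPM in EC-OVA and 34340 to 35310 CPM in EC-SAL.

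The members were not uniform, and the number of trio genes found in a cell graded them. In EC-OVA 33 members (21.7%) had 1 trio gene, 55 (36.2%) had 2 and 64 (42.1%) had 3, against 18 (16.1%), 42 (37.5%) and 52 (46.4%) in EC-SAL. With 1, 2 and 3 trio genes, the median Acta2 count was 9, 12 and 45 UMIs in EC-OVA and 10, 14.5 and 32 UMIs in EC-SAL. The median count of Igfbp2, which the rule did not use, was 7, 16 and 30.5 UMIs in EC-OVA and 15, 19.5 and 32.5 UMIs in EC-SAL along the same grades. Ednrb was found in 27.3%, 47.3% and 78.1% of EC-OVA members and in 38.9%, 50% and 86.5% of EC-SAL members with 1, 2 and 3 trio genes. The genes of the sheath therefore rose together along these grades, but not they alone. The collagen gene Col1a1 had medians of 55, 75 and 96.5 UMIs in EC-OVA and 42, 80 and 127.5 UMIs in EC-SAL. Median depth along the grades was 10630, 10510 and 11030 UMIs in EC-OVA and 8550, 7862 and 9974 UMIs in EC-SAL. This is a description in which each cell's depth is shared by all of its counts.

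**Figure D2:**
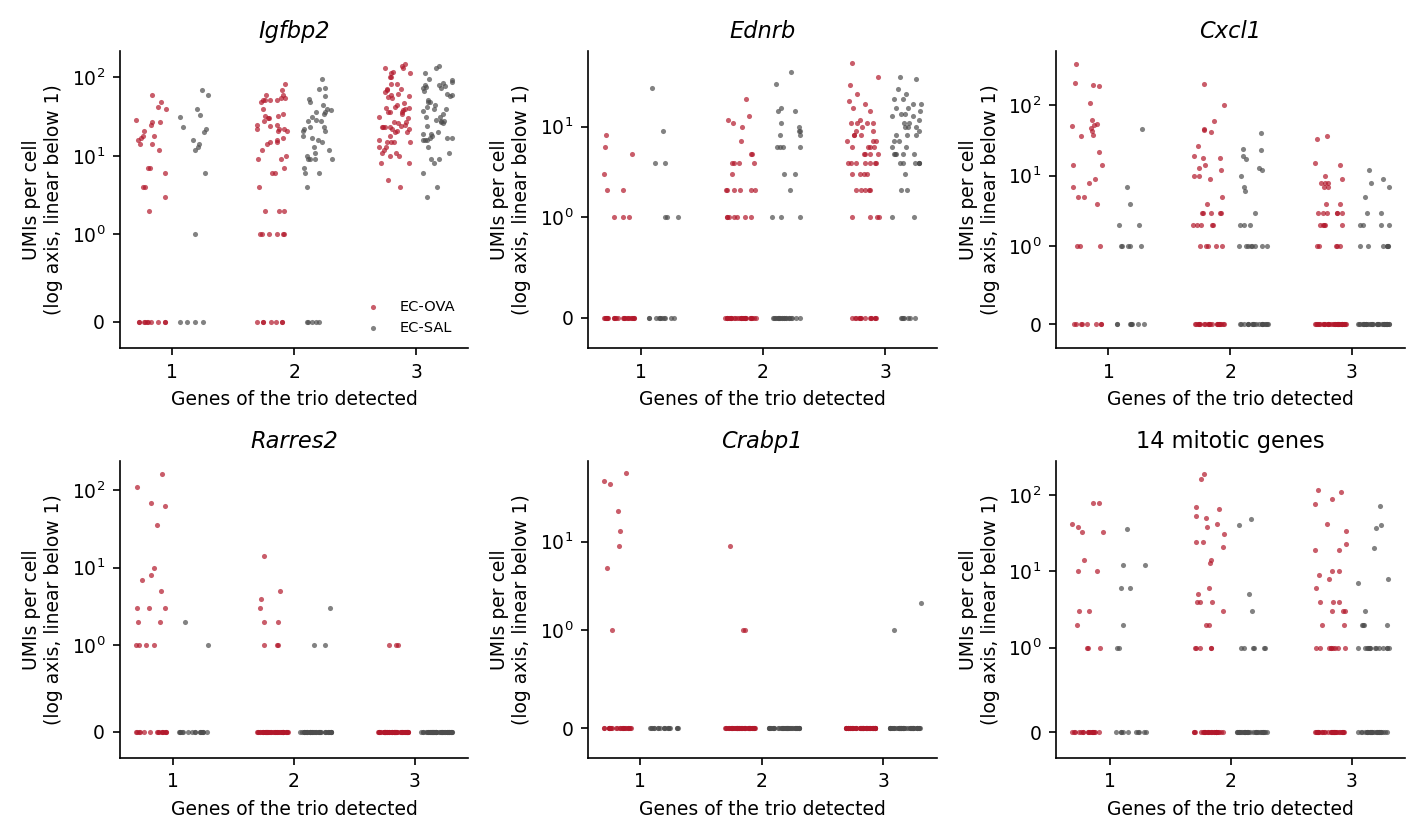
Members grouped by how many trio genes they carried (horizontal axis, 1 to 3), with EC-OVA cells left of EC-SAL cells. UMIs per cell are on a log vertical axis, and each point is a cell. Igfbp2 medians in cells with 3 trio genes were 30.5 UMIs in EC-OVA and 32.5 UMIs in EC-SAL.

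At the edges of the rule, 30 EC-OVA and 13 EC-SAL members had only 5 or 6 Acta2 UMIs, and 22 EC-OVA and 21 EC-SAL barcodes with 3 or 4 met every other criterion. Likewise 13 EC-OVA and 6 EC-SAL members had a trio sum of 2, while 15 EC-OVA and 4 EC-SAL barcodes missed the rule with a sum of 1. Another 66 EC-OVA and 15 EC-SAL barcodes met every other criterion but had no trio UMI. A further 24 EC-OVA and 17 EC-SAL barcodes missed the rule only because they had no Lrrc15. Median depth was 10616, 11005 and 11136.5 UMIs per member in EC-OVA, against 8549, 8857.5 and 9513 in EC-SAL, so an EC-OVA cell had more UMIs with which to reach a threshold.

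Members took a larger share of the EC-OVA suspensions in every library. They made up 1.38%, 1.15% and 1.46% of kept barcodes in EC-OVA libraries 1 to 3, against 0.769%, 0.651% and 0.944% in EC-SAL libraries 1 to 3. The groups did not overlap, and the means were 1.33% ± 0.162 in EC-OVA and 0.788% ± 0.148 in EC-SAL (SD, n = 3 each). The two-sided exact permutation p was 0.1, the smallest that 3 against 3 libraries can give. Among barcodes with at least 10 UMIs of Col1a1, Col1a2 and Col3a1 in sum and none of Ptprc, members were 4.03%, 3.09% and 3.79% in EC-OVA, against 2.92%, 2.56% and 3.54% in EC-SAL. Here the groups overlapped, and the exact permutation p was 0.2. When barcodes were thinned to 3000 UMIs and the rule was applied again, with 18388 of 25772 barcodes deep enough (8221 in EC-OVA and 10167 in EC-SAL), 70 EC-OVA and 57 EC-SAL barcodes were members and the share was 0.855% ± 0.141 in EC-OVA and 0.560% ± 0.061 in EC-SAL (SD, n = 3 each). The median kept barcode had 4931 to 5334 UMIs in EC-OVA and 4567 to 4966.5 UMIs in EC-SAL. Keratinocyte RNA in the rest of the suspension differed between the groups as given above, and its part in the share was not tested.

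**Figure D3:**
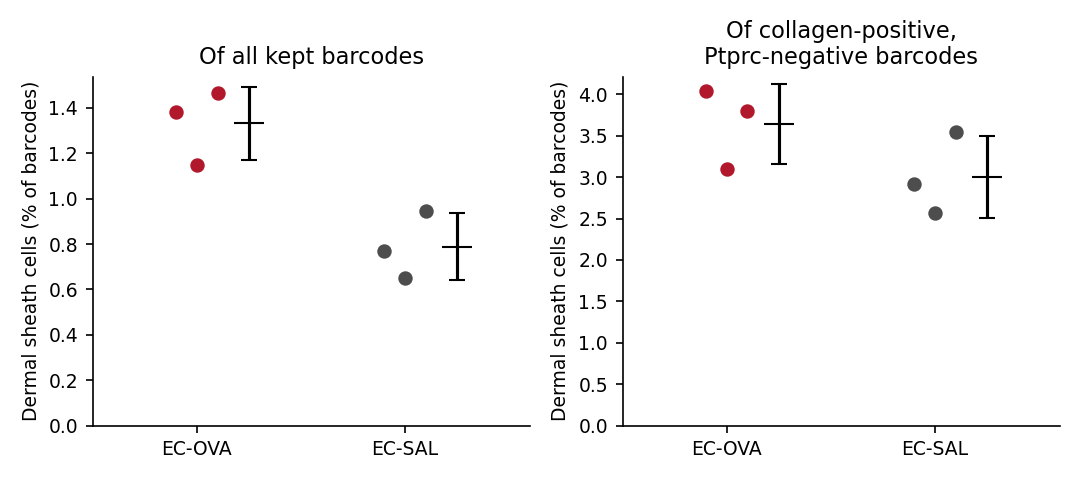
Share of members per library (percent, vertical axis from 0) among all kept barcodes and among collagen-expressing, Ptprc-negative barcodes, with EC-OVA left of EC-SAL, points for libraries and bars for means. The groups stand apart over all kept barcodes (1.33% and 0.788% on average) and overlap among collagen-expressing barcodes.

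For expression, UMIs of the members were summed per library, which gave 622242, 545535 and 635750 UMIs in EC-OVA and 368726, 303104 and 422238 UMIs in EC-SAL. The sums were tested with edgeR's quasi-likelihood test, with p-values adjusted by the Benjamini-Hochberg method over all 5326 genes tested and a threshold of 0.05. Across those genes 34 (0.638%) were higher and 20 (0.376%) lower in EC-OVA members, 862 (16.2%) did not overlap between groups, and the median log2 fold change was 0.00.

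Genes of cell division rose in EC-OVA members. Of 25 cell cycle genes listed, 22 were tested, 8 rose (0.638% of all genes were higher) and none fell. Of the 22, 21 had a positive log2 fold change, with a median of 1.15 over the list, and 17 did not overlap between groups (16.2% of all genes). The genes that rose act mainly in mitosis. Ccnb1, the cyclin that takes cells into mitosis, was at 69.1, 77.0 and 62.9 CPM in EC-OVA libraries 1 to 3, against 19.0, 13.2 and 14.2 CPM in EC-SAL libraries 1 to 3. Every EC-OVA library was above every EC-SAL library (log2 fold change 2.14 ± 0.29 SE, adjusted p = 0.00266). Ube2c, the ubiquitin-conjugating enzyme of the anaphase-promoting complex, was at 111, 125 and 97.5 CPM in EC-OVA, against 38.0, 29.7 and 16.6 CPM in EC-SAL, again without overlap (log2 fold change 2.00 ± 0.28, adjusted p = 0.00266). Cdk1, the kinase partner of mitotic cyclins, was at 85.2, 154 and 108 CPM in EC-OVA, against 48.8, 29.7 and 47.4 CPM in EC-SAL (log2 fold change 1.43, adjusted p = 0.0278). Stmn1, a microtubule-destabilizing stathmin, was at 381, 440 and 489 CPM in EC-OVA, against 114, 175 and 211 CPM in EC-SAL (log2 fold change 1.38, adjusted p = 0.00266). Hmgb2, a chromatin protein of dividing cells, had a log2 fold change of 1.13, Cenpa, the histone variant of centromeres, of 1.59, Birc5 (survivin) of 1.17 and the cyclin Ccna2 of 1.69. Without EC-SAL library 1 or 2 the calls were lost for Cenpa (adjusted p = 0.0563 and 0.0552), Birc5 (0.0563 and 0.0569), Ccna2 (0.0824 and 0.113) and Cdk1 (0.0824 and 0.147). Those for Ccna2 and Cdk1 were also lost without EC-OVA library 3 (0.0956 and 0.0611). The Cdk1 call was lost as well without EC-OVA library 2 (0.05001) or EC-SAL library 3 (0.0507). It was also lost with barcodes of high doublet score, a score for 2 cells in 1 barcode, left out (0.0720). The calls for Ccnb1, Ube2c, Stmn1 and Hmgb2 held without each library in turn. Among members with at least 2 trio genes, 7 of 20 tested cell cycle genes rose (0.412% of all genes were higher), with a median of 1.37, and under a stricter rule of at least 10 Acta2 and 4 trio UMIs 1 of 17 rose, with a median of 1.12, where the changes of Ccnb1 and Ube2c were 2.05 (adjusted p = 0.0600) and 2.02 (adjusted p = 0.0928).

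Outside the list, Cdc20, the activator of the anaphase-promoting complex, was at 53.0, 69.7 and 84.9 CPM in EC-OVA members, against 21.7, 9.90 and 16.6 CPM in EC-SAL members (log2 fold change 2.06, adjusted p = 0.00617). Cdca3, a mitotic-entry factor, was at 104, 77.0 and 81.8 CPM in EC-OVA, against 24.4, 6.60 and 14.2 CPM in EC-SAL (log2 fold change 2.48, adjusted p = 0.00266). Both were without overlap between the groups. Kif22, a chromosome-moving kinesin, Pimreg, a mitotic regulator, and Spc25, a kinetochore protein, also rose, by 2.26, 2.56 and 2.08 on the log2 scale from levels of at most 13.6 CPM in EC-SAL. Their calls were lost without any library except EC-OVA 1 for Kif22 (adjusted p up to 0.0956), any library for Pimreg (up to 0.17) and any library except EC-SAL 3 for Spc25 (up to 0.152). Genes of DNA replication did not pass the test. The helicase subunit genes Mcm2, Mcm3, Mcm5 and Mcm6 had log2 fold changes of -0.14, 0.43, 0.41 and 0.34, and Pcna, the polymerase clamp, of 0.50 (adjusted p = 0.38).

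The promoters of 4 of these mitotic genes are shown because genes of this stage are known to share CCAAT boxes and a cell cycle homology region, whose core letters are TTTGAA or TTCGAA. Each is the 250 bases upstream of the RefSeq gene start on GRCm38.p6, written 5′ to 3′ on the gene's strand, with matches on either strand to CCAAT and to TTTGAA or TTCGAA in capitals (ATTGG and TTCAAA are the reverse-strand readings, and CCAATTGG holds an overlapping match on each strand). The windows are chr13:100786487-100786736 on the minus strand for Ccnb1, chr4:118437344-118437593 on the minus strand for Cdc20, chr2:164769679-164769928 on the plus strand for Ube2c and chr10:69352913-69353162 on the minus strand for Cdk1.
Ccnb1: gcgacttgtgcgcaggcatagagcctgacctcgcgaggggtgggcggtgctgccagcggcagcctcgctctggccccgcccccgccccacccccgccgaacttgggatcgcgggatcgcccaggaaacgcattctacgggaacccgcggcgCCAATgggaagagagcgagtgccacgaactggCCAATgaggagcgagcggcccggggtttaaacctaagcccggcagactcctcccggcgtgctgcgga
Cdc20: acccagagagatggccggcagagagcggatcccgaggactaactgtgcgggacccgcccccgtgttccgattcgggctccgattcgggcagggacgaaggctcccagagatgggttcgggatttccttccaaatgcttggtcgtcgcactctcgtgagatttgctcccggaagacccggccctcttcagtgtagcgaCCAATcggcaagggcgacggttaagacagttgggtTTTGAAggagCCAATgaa
Ube2c: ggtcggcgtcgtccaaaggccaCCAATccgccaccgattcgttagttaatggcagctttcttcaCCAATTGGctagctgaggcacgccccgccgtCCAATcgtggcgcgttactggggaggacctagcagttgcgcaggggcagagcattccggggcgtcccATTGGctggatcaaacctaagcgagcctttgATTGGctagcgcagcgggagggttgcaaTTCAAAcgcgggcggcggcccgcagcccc
Cdk1: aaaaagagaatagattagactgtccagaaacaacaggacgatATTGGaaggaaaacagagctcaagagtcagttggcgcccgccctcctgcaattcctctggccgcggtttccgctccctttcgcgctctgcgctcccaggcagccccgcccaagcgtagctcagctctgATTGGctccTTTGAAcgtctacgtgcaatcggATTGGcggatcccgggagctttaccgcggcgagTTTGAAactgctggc

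Ccnb1 had 2 CCAAT matches, at 99 to 95 and 67 to 63 bases before the start. Cdc20 had 2 CCAAT matches and a TTTGAA 18 to 13 bases before the start, Ube2c 6 CCAAT matches and a TTTGAA on the reverse strand, and Cdk1 3 CCAAT matches on the reverse strand and 2 TTTGAA. Of the tested cell cycle genes, 19 had a promoter entry, 16 of those held a CCAAT and 7 a TTTGAA or TTCGAA. Among all 27025 promoter windows of this length, 34.5% held CCAAT, 16.3% TTTGAA and 1.34% TTCGAA. These matches describe the letters only.

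More EC-OVA members carried mitotic RNA. Counting 14 mitotic genes, a subset chosen after their values were seen, 13 of 53, 10 of 47 and 16 of 52 EC-OVA members had at least 5 UMIs, against 5 of 41, 3 of 30 and 6 of 41 EC-SAL members. These are 24.5%, 21.3% and 30.8% in EC-OVA and 12.2%, 10.0% and 14.6% in EC-SAL, with no overlap. In cells thinned to 3000 UMIs, the share with at least 2 mitotic UMIs was 23.3% ± 3.18 in EC-OVA and 11% ± 1.63 in EC-SAL (SD, n = 3 each). The same unthinned measure was 5.40% ± 0.576 in EC-OVA and 1.81% ± 1.58 in EC-SAL pericyte-rule cells, and 8.17% ± 1.13 in EC-OVA and 2.78% ± 0.842 in EC-SAL fibroblast-rule cells. Thinned as above, it was 9.11% ± 0.363 in EC-OVA and 3.23% ± 2.81 in EC-SAL pericyte-rule cells, and 7.86% ± 1.10 in EC-OVA and 2.59% ± 0.855 in EC-SAL fibroblast-rule cells. Within each group the members had the highest mean share of the 3 classes on either measure. Cells with 1 trio gene held 19.5% of the members' mitotic UMIs in EC-OVA and 19.7% in EC-SAL.

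The rise could not be told from that in the neighbouring classes. In pericyte-rule cells 1 of 9 tested cell cycle genes rose (1.42% of all genes were higher there), with a median of 0.62, and in fibroblast-rule cells 1 of 20 rose (1.27% of all genes), with a median of 0.78. No cell cycle gene passed the test of the difference in response between members and either class (21 genes tested against pericyte-rule and 24 against fibroblast-rule cells), which does not show that the responses were alike. For Ccnb1 the difference was 0.24 (adjusted p = 0.98) against pericyte-rule and 1.16 (adjusted p = 0.571) against fibroblast-rule cells. In the rest of the suspension the list went the other way, with 0 of 25 higher and 14 lower in EC-OVA (22.9% of all genes were higher and 22.3% lower there) and a median of -0.21.

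**Figure D4:**
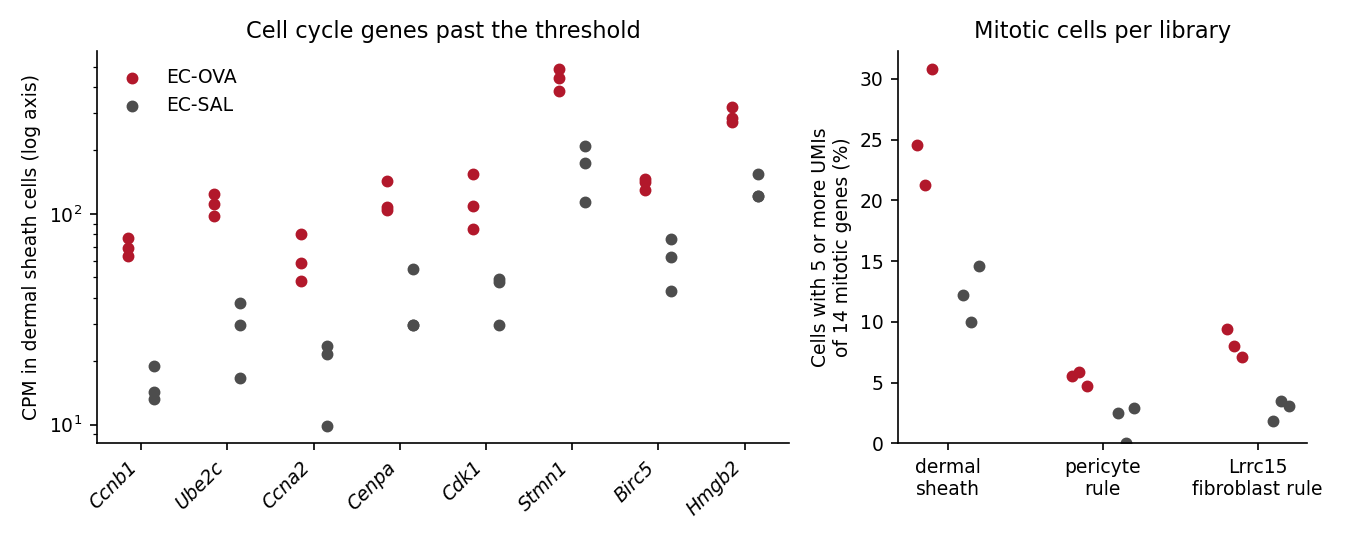
Left, mitotic and cell cycle genes in the members of each library (CPM on a log axis), and right, the percentage of cells with at least 5 mitotic UMIs in members and neighbouring classes, with EC-OVA left of EC-SAL. Members lie at 21.3% to 30.8% in EC-OVA and at 10.0% to 14.6% in EC-SAL.

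Neutrophil-attracting chemokines were higher in EC-OVA members and unevenly spread over them. Of 30 chemokine and cytokine genes listed, 10 were tested, 4 rose and none fell, with a median log2 fold change of 1.06. Of all genes tested in the members, 0.638% were higher. Cxcl1 (chr5:90891241-90893115, plus strand), a ligand of the neutrophil receptor CXCR2, was at 1374, 1217 and 1439 CPM in EC-OVA, against 252, 300 and 315 CPM in EC-SAL. The groups were far apart (log2 fold change 2.21 ± 0.13 SE, adjusted p = 8.65e-07). Cxcl2, which acts on the same receptor, was at 471, 204 and 653 CPM in EC-OVA, against 27.1, 56.1 and 52.1 CPM in EC-SAL (log2 fold change 3.29 ± 0.38, adjusted p = 0.000944). Ccl7, a monocyte-attracting chemokine, was at 1282, 1226 and 1633 CPM in EC-OVA, against 721, 558 and 924 CPM in EC-SAL (log2 fold change 0.90 ± 0.16, adjusted p = 0.0151), a call that was lost without EC-OVA library 3 (adjusted p = 0.0896), EC-SAL library 1 (0.078) or EC-SAL library 2 (0.0807) and among members with at least 2 trio genes (0.145). The Cxcl5 call (log2 fold change 6.85, adjusted p = 0.0251) was lost without any 1 EC-SAL library (0.0765 to 0.145). Cxcl5, a further CXCR2 ligand, had 249 UMIs in EC-OVA and 1 in EC-SAL members. This is a ratio of 151 per UMI sequenced with a 95% counting interval of 26.9 to 5990. Of the EC-OVA UMIs, 187 lay in 1 cell. Fibroblast-rule cells had 1891 Cxcl5 UMIs in EC-OVA and 12 in EC-SAL, and pericyte-rule cells 551 and 85, so its higher EC-OVA count was not particular to the members.

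Ccl2, which attracts monocytes through CCR2, was at 3078, 3948 and 3818 CPM in EC-OVA and 2227, 2682 and 3339 CPM in EC-SAL and did not pass (log2 fold change 0.39, adjusted p = 0.335). Il6, an inflammatory cytokine gene, was at 46.6, 25.7 and 55.0 CPM in EC-OVA and 13.6, 19.8 and 21.3 CPM in EC-SAL (log2 fold change 1.22, adjusted p = 0.149). Il33 was seen at 11 to 19.3 CPM in EC-OVA and at 0 to 4.74 CPM in EC-SAL, too low for the test. Ccl20, which attracts CCR6-bearing cells, went the other way, at 6.43, 11 and 1.57 CPM in EC-OVA, against 92.2, 82.5 and 40.3 CPM in EC-SAL (log2 fold change -3.47, adjusted p = 0.00266), as it did in the rest of the suspension, with means of 381 CPM in EC-OVA and 748 CPM in EC-SAL.

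Pericyte-rule and fibroblast-rule cells had more Cxcl1 than the members and showed no rise of it. The pericyte-rule mean was 18260 CPM in EC-OVA and 21640 CPM in EC-SAL (log2 fold change -0.26, adjusted p = 0.291), and the fibroblast-rule mean 4749 CPM in EC-OVA and 5593 CPM in EC-SAL (log2 fold change -0.22). In the rest of the suspension the mean was 2684 CPM in EC-OVA and 1731 CPM in EC-SAL. The member response exceeded the pericyte-rule response by 2.48 ± 0.14 on the log2 scale (adjusted p = 6.58e-08) and the fibroblast-rule response by 2.43 ± 0.11 (adjusted p = 7.26e-10). Over all genes, 8 of 5623 (0.142%) responded more strongly upward in members than in pericyte-rule cells and 22 (0.391%) less, and 10 of 6904 (0.145%) and 42 (0.608%) did so against fibroblast-rule cells.

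Much of the EC-OVA Cxcl1 and Cxcl2 lay in cells with the fewest trio genes. The 2434 Cxcl1 UMIs of EC-OVA lay in 87 members and the 317 of EC-SAL in 50, and the top 5 cells held 48.1% of the EC-OVA UMIs. Members with 1 trio gene held 64.0% of the Cxcl1 UMIs in EC-OVA and 20.8% in EC-SAL, and 73.3% of the Cxcl2 UMIs in EC-OVA and 51.0% in EC-SAL. They held less of Ccl7 (41.3% in EC-OVA and 13.7% in EC-SAL) and of Ccl2 (32.7% in EC-OVA and 24.3% in EC-SAL). Among members with at least 2 trio genes (119 in EC-OVA and 94 in EC-SAL), the Cxcl1 log2 fold change was 1.27 (adjusted p = 0.0282) and that of Cxcl2 was 2.58 (adjusted p = 0.145). Under the stricter rule (93 cells in EC-OVA and 76 in EC-SAL) the Cxcl1 change was 0.95 (adjusted p = 0.166) and the Cxcl2 change 0.90 (adjusted p = 0.676). The differences in response were also smaller there. With at least 2 trio genes the Cxcl1 difference was 1.51 (adjusted p = 0.000482) against pericyte-rule and 1.46 (adjusted p = 0.0056) against fibroblast-rule cells, and under the stricter rule 1.22 (adjusted p = 0.0443) and 1.16 (adjusted p = 0.112).

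The Cxcl1 and Cxcl2 promoters are shown for the letters they share. Each is the 250 bases upstream of the RefSeq start on GRCm38.p6, plus strand, chr5:90890995-90891244 for Cxcl1 and chr5:90903649-90903898 for Cxcl2, with the match to the kappaB motif, the recognition sequence of NF-kappaB, in capitals.
Cxcl1: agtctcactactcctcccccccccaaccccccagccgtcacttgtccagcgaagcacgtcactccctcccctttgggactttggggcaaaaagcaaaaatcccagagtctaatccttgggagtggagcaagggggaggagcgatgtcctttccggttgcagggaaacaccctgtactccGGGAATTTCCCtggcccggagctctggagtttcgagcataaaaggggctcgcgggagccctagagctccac
Cxcl2: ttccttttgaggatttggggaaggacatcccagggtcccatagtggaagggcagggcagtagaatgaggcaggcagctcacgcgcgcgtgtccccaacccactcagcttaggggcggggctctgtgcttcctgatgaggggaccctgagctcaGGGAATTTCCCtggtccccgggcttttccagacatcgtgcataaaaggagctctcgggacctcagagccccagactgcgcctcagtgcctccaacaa

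Both windows held the same 11 letters, GGGAATTTCCC, which match the motif on each strand, and 3.75% of all promoter windows held a match to it. No binding was measured.

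Other genes that rose were carried by few cells of low sheath identity. Rarres2, the precursor of the chemoattractant chemerin, was at 447, 198 and 209 CPM in EC-OVA, against 0, 6.60 and 14.2 CPM in EC-SAL (log2 fold change 5.24 ± 0.52, adjusted p = 0.00021), with 519 UMIs in 30 EC-OVA members and 8 UMIs in 5 EC-SAL members. Members with 1 trio gene held 93.1% of the EC-OVA UMIs, and of 16 EC-OVA members with at least 3 Rarres2 UMIs, 1 had Ednrb and 7 had Igfbp2. In fibroblast-rule cells Rarres2 averaged 1790 CPM in EC-OVA and 948 CPM in EC-SAL, and the fibroblast marker list summed to 3582 to 5544 CPM in EC-OVA and 3768 to 5747 CPM in EC-SAL members, whose part in these values was not tested. Crabp1, a retinoic acid binding protein found in dermal papilla and some dermal fibroblasts, had 214 UMIs in 11 EC-OVA members and 3 UMIs in 2 EC-SAL members, a ratio of 43.3 per UMI sequenced with a 95% counting interval of 14.6 to 211. That interval covers counting error only, and the top 5 cells held 87.85% of the EC-OVA UMIs. A cell with 49 of these UMIs also carried 382 keratin UMIs. Tnc, the matrix protein tenascin-C, was at 201, 114 and 84.9 CPM in EC-OVA, against 27.1, 0 and 16.6 CPM in EC-SAL, and Il1rl1, the interleukin-33 receptor, at 64.3, 97.2 and 135 CPM in EC-OVA, against 24.4, 13.2 and 9.47 CPM in EC-SAL. Both were without overlap (log2 fold change 3.09, adjusted p = 0.00724 for Tnc, and 2.65, adjusted p = 0.00339 for Il1rl1). Among members with at least 2 trio genes the changes were 1.31 (adjusted p = 0.575) for Tnc and 0.50 (adjusted p = 0.762) for Il1rl1. Fibroblast-rule cells (488 in EC-OVA and 294 in EC-SAL) had 869 and 117 Crabp1 UMIs, 2300 and 483 Tnc UMIs and 778 and 260 Il1rl1 UMIs. These are raw counts from unequal totals. The fibroblast-rule cells of a library held 1212200, 1540872 and 1183655 UMIs in EC-OVA and 706101, 607959 and 634353 in EC-SAL.

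Further genes rose in the sums over all members, cells with 1 trio gene included. Tnfaip6, a hyaluronan-binding protein induced in inflammation, was at 996, 662 and 938 CPM in EC-OVA, against 475, 462 and 388 CPM in EC-SAL (log2 fold change 0.97, adjusted p = 0.00705). Ctsl, the lysosomal protease cathepsin L, was at 562, 398 and 518 CPM in EC-OVA, against 252, 264 and 227 CPM in EC-SAL (log2 fold change 0.99, adjusted p = 0.00438). Cthrc1, a secreted protein of activated fibroblasts, was at 150, 238 and 186 CPM in EC-OVA, against 46.1, 49.5 and 92.4 CPM in EC-SAL (log2 fold change 1.57, adjusted p = 0.00892). The groups did not overlap for these 3 genes. Among members with at least 2 trio genes none of them passed, with log2 fold changes of 0.33 for Tnfaip6 (adjusted p = 0.781), -0.17 for Ctsl (adjusted p = 0.738) and 0.80 for Cthrc1 (adjusted p = 0.235). The Cthrc1 call was also lost without EC-SAL library 1 (adjusted p = 0.0578) or 2 (adjusted p = 0.0678). Fibroblast-rule cells had 2193 Cthrc1 UMIs in EC-OVA (488 cells) and 509 in EC-SAL (294 cells), from the unequal totals given above.

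The contractile machinery showed no gene past the test in either direction. Of 16 tested genes of the contractile apparatus that the rule did not use, 13 had negative log2 fold changes, with a median of -0.17. Tagln was at 616, 801 and 527 CPM in EC-OVA and 648, 970 and 912 CPM in EC-SAL (log2 fold change -0.38). Mylk, the kinase that activates smooth muscle myosin, was at 117, 148 and 64.5 CPM in EC-OVA and 247, 198 and 144 CPM in EC-SAL (log2 fold change -0.84, adjusted p = 0.235). Myl9, the regulatory light chain it acts on, had a change of -0.37, and the actin-bundling protein gene Csrp1 of -0.36 (adjusted p = 0.313). No tested gene of the lists for smooth muscle regulators (5 tested, median -0.02) and calcium handling (6 tested besides Casq2, median 0.08) passed, and the vascular channel genes Kcnmb1, Kcnj8 and Trpc6 were at 0 UMIs in the members.

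Ednrb, the endothelin receptor type B, fell in EC-OVA members, against a rise in pericyte-rule cells. The gene (ENSMUSG00000022122, chr14:103814625-103844402, minus strand, mm10 with GENCODE M21 coordinates) was at 312, 414 and 255 CPM in the members of EC-OVA libraries 1 to 3, against 852, 554 and 585 CPM in those of EC-SAL libraries 1 to 3. Every EC-OVA library was below every EC-SAL library (log2 fold change -1.02 ± 0.20 SE, adjusted p = 0.0278). In pericyte-rule cells Ednrb averaged 297 ± 38.3 CPM in EC-OVA and 77.5 ± 25.8 CPM in EC-SAL (SD, n = 3 each), with a log2 fold change of 1.95 and an adjusted p of 0.000161. The difference between these responses was -2.98 ± 0.28 (adjusted p = 3.66e-05). That difference was between -3.37 and -2.72 when any 1 library was left out, and -2.81 among members with at least 2 trio genes. The fall within the members was less firm, with an adjusted p of 0.0766 among members with at least 2 trio genes (-0.84), 0.144 under the stricter rule (-0.76), and 0.0512, 0.12, 0.113 and 0.0586 without EC-OVA library 1, EC-OVA library 3, EC-SAL library 1 and EC-SAL library 2. Fibroblast-rule cells had almost none, with means of 2.10 CPM in EC-OVA and 0.998 CPM in EC-SAL. Ednra, the type A receptor, was at 65.9, 47.7 and 67.6 CPM in EC-OVA and 65.1, 99.0 and 75.8 CPM in EC-SAL members and did not pass (log2 fold change -0.39, adjusted p = 0.588). Edn1, the ligand gene, was at 1.83 to 14.2 CPM in EC-OVA and 0 to 11.8 CPM in EC-SAL members, too low for the test.

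Igfbp2 was at 2735, 2473 and 2284 CPM in EC-OVA, against 3379, 3708 and 3076 CPM in EC-SAL members. The libraries did not overlap, but the fall did not pass (log2 fold change -0.44 ± 0.12, adjusted p = 0.121). In fibroblast-rule cells it rose, with means of 1147 CPM in EC-OVA and 462 CPM in EC-SAL (log2 fold change 1.32, adjusted p = 0.00841), and the difference in response was -1.78 (adjusted p = 0.00234).

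Further sheath genes outside the rule did not pass. Tnmd, the tendon membrane protein tenomodulin, was at 1302, 1217 and 1082 CPM in EC-OVA, against 1668, 1336 and 1423 CPM in EC-SAL (log2 fold change -0.30, adjusted p = 0.416). Col11a1 was at 331, 304 and 329 CPM in EC-OVA, against 415, 402 and 348 CPM in EC-SAL, and Acan at 85.2, 91.7 and 67.6 CPM in EC-OVA, against 114, 95.7 and 92.4 CPM in EC-SAL. All 3 were lower in each EC-OVA library than in any EC-SAL library, by less than the test's threshold.

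Several further genes fell. Mustn1, a small nuclear protein of the musculoskeletal system, was at 69.1, 64.2 and 73.9 CPM in EC-OVA, against 190, 145 and 156 CPM in EC-SAL (log2 fold change -1.25 ± 0.17, adjusted p = 0.00266), and when the rule did without Lrrc15 the change was -0.62 and its call was lost (adjusted p = 0.224). Anxa8, which was high in the members relative to the neighbouring classes only, was at 270, 148 and 228 CPM in EC-OVA, against 486, 459 and 396 CPM in EC-SAL (log2 fold change -1.05, adjusted p = 0.00892). In the rest of the suspension Anxa8 averaged 241 CPM in EC-OVA and 451 CPM in EC-SAL, and its part in the members' values was not tested. Neither gene overlapped between groups in the members. Vamp5, a vesicle protein of muscle, was at 57.9, 47.7 and 48.8 CPM in EC-OVA, against 128, 109 and 114 CPM in EC-SAL (log2 fold change -1.18, adjusted p = 0.00774). Timp3, an inhibitor of matrix metalloproteinases, had a change of -0.97 (adjusted p = 0.0425), the integrin-like Itgbl1 of -0.86 (adjusted p = 0.0462) and Pdgfrl, a secreted relative of the PDGF receptor, of -0.68 (adjusted p = 0.0425). These last 3 calls were fragile. They were lost without any library except EC-SAL 2 for Timp3 (adjusted p up to 0.211), without any except EC-OVA 1 for Itgbl1 (up to 0.221), and without EC-OVA library 2 or 3 or EC-SAL library 1 or 2 for Pdgfrl (up to 0.183). Without EC-SAL library 1 the calls for Anxa8 (adjusted p = 0.0563) and Vamp5 (0.0536) were also lost, as was Anxa8 without EC-SAL library 2 (0.0586). Clu, the chaperone clusterin, was at 6.43, 12.8 and 7.87 CPM in EC-OVA, against 65.1, 39.6 and 42.6 CPM in EC-SAL (log2 fold change -2.44, adjusted p = 0.00496), and its call was lost without EC-SAL library 1 (0.0536).

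Of 29 tested genes that respond to dissociation, 2 fell (0.376% of all genes were lower) and none rose, with a median of -0.32. These were the stress transcription factor Atf3, at 111, 93.5 and 190 CPM in EC-OVA, against 377, 277 and 213 CPM in EC-SAL, and the small heat shock protein Hspb1, at 407, 379 and 299 CPM in EC-OVA, against 491, 808 and 666 CPM in EC-SAL. The Atf3 call was lost without EC-OVA library 1 or 2 or EC-SAL library 1 or 2 (adjusted p up to 0.238), and the Hspb1 call without EC-OVA library 3 or EC-SAL library 2 or 3 (up to 0.205). Keratinocyte genes made up several of the largest falls. Of 10 tested, Krt10, Lgals7 and Perp fell, beside the same 0.376% of all genes, and all 10 had negative changes, with a median of -1.47. Krt10, a keratin of the differentiated epidermis, was at 166, 136 and 167 CPM in EC-OVA, against 1456, 756 and 220 CPM in EC-SAL (log2 fold change -2.38, adjusted p = 0.0211). Krt2, Calm4 and Sprr1a, also genes of differentiated epidermis, had changes of -3.22, -3.13 and -3.22, and Fxyd3, Plet1 and Dmkn, further epithelial genes, of -1.84, -1.69 and -1.43. The Krt10, Lgals7 and Perp calls were lost without single libraries of both groups, with adjusted p up to 0.0833, 0.121 and 0.235, in each case without EC-SAL library 1, and those of Calm4 and Sprr1a without EC-SAL library 1 (0.0536 and 0.0563) or 2 (0.0569 and 0.0586). The calls of Fxyd3 and Plet1 were lost without EC-OVA library 3 or EC-SAL library 1 or 2 (adjusted p up to 0.0851 and 0.134), and that of Dmkn without any library except EC-OVA 2 and EC-SAL 3 (up to 0.249). In the rest of the suspension 11 of 12 tested keratinocyte genes were lower in EC-OVA, where 22.3% of all genes tested were lower. The median member carried 2 keratin UMIs in EC-OVA and 5 in EC-SAL, but a few members held far more. The highest counts were 233, 297 and 382 in EC-OVA and 315, 334, 369, 391 and 408 in EC-SAL. With members of at least 10 keratin UMIs left out (8 in EC-OVA and 15 in EC-SAL), 37 genes were higher and 26 lower. The calls of Perp (adjusted p = 0.225) and Dmkn (0.104) were lost there. With barcodes of high doublet score left out, the calls of Krt10 (0.121) and Perp (0.0642) were lost.

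Fibrillar collagen and related matrix genes rose in both neighbouring classes, and none of that list passed the test in the members. Of 26 tested fibrillar collagen and matrix genes, none rose and none fell in the members, with a median of -0.09. In pericyte-rule cells 11 of 17 rose, with a median of 1.04 (1.42% of all genes were higher there), and in fibroblast-rule cells 12 of 27 rose, with a median of 0.49 (1.27% of all genes were higher). In the rest of the suspension 26 of 27 rose, where 22.9% of all genes were higher. The response of members was lower than that of pericyte-rule cells for 7 of 27 genes tested and lower than that of fibroblast-rule cells for 11 of 27, and higher for none. All comparisons with the members use the same member libraries.

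Col6a2, a chain of the beaded microfibrillar collagen VI, was at 1517, 1465 and 1376 CPM in EC-OVA members, against 1454, 1214 and 1383 CPM in EC-SAL members (log2 fold change 0.10). In pericyte-rule cells it averaged 1036 CPM in EC-OVA and 392 CPM in EC-SAL (log2 fold change 1.38, adjusted p = 0.000161), and in fibroblast-rule cells 1426 CPM in EC-OVA and 762 CPM in EC-SAL (log2 fold change 0.93, adjusted p = 0.000846). The member response was lower by 1.28 (adjusted p = 0.00087) and 0.82 (adjusted p = 0.00234) on the log2 scale. Col1a1, the main chain of type I collagen, was at 9848, 7765 and 7723 CPM in EC-OVA, against 12140, 10460 and 9727 CPM in EC-SAL members (log2 fold change -0.36, adjusted p = 0.274), with differences in response of -1.64 against pericyte-rule and -0.90 against fibroblast-rule cells (adjusted p = 0.00648 and 0.00831). The fibroblast rule uses Col1a1, and the second difference missed the threshold without EC-SAL library 1 (0.0651) or 2 (0.056). Col12a1, a fibril-associated collagen, was at 411, 447 and 285 CPM in EC-OVA, against 450, 515 and 445 CPM in EC-SAL members, while fibroblast-rule cells averaged 290 CPM in EC-OVA and 99.7 CPM in EC-SAL (difference -1.88, adjusted p = 0.000277). Postn, the matricellular protein periostin, was at 1520, 1518 and 1244 CPM in EC-OVA members, against 1277, 1118 and 1146 CPM in EC-SAL members (log2 fold change 0.27), without overlap but short of the threshold, and its response was below that of pericyte-rule cells (difference -1.85, adjusted p = 0.00443).

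The other genes with a lower response were Col1a2, Col5a2, Col6a1, Col6a3 and the small proteoglycan Bgn against pericyte-rule cells, and Col1a2, Col3a1, Col5a1, Col5a2, Col6a3, Fbn2, Eln and Bgn against fibroblast-rule cells. The count against pericyte-rule cells was 5 to 8 when any 1 library was left out. The count against fibroblast-rule cells was 2 without EC-SAL library 2, 4 without EC-SAL library 1, 5 without EC-OVA library 3 and 6 without EC-SAL library 3. Among members with at least 2 trio genes the counts were 10 against pericyte-rule and 14 against fibroblast-rule cells, where 1.07% and 0.895% of all genes tested had a lower response.

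**Figure D5:**
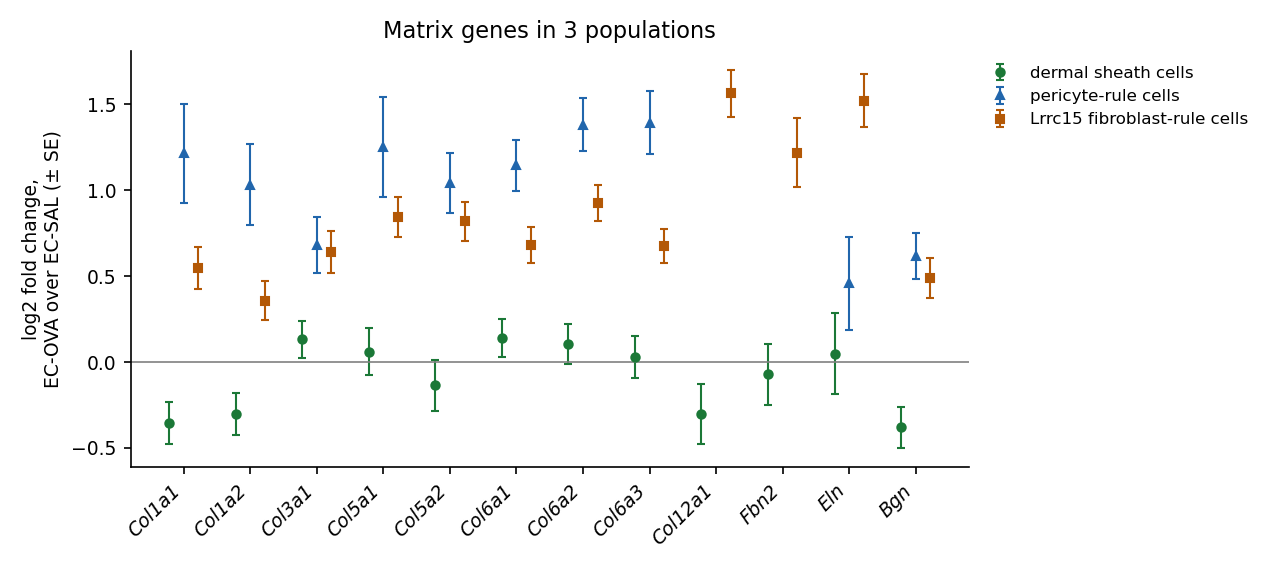
Log2 fold changes (EC-OVA over EC-SAL, vertical axis) of matrix genes in members, pericyte-rule cells and Lrrc15 fibroblast-rule cells. Error bars are 1 SE from the fit. Only genes of the list that passed the test of the difference in response against either class are shown. A difference between classes was therefore fixed by that choice. Over all tested genes of the list, shown or not, the median was -0.09 in members, 1.04 in pericyte-rule cells and 0.49 in fibroblast-rule cells.

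Further lists held few calls, where 0.638% of all genes tested were higher and 0.376% lower in EC-OVA members. No gene passed among 14 tested basement membrane genes (median -0.28), 18 of TGF-beta, activin and BMP signalling (median -0.20), 11 of Wnt signalling (median -0.15), 13 growth factor genes (median -0.35), 6 interferon-stimulated genes (median 0.25), 7 genes of MHC class I presentation (median 0.33) and 15 of glycolysis and hypoxia (median 0.00). B2m, the light chain of MHC class I, was at 852, 711 and 780 CPM in EC-OVA, against 580, 568 and 571 CPM in EC-SAL, without overlap and short of the threshold (log2 fold change 0.44, adjusted p = 0.116). Of 8 tested genes that respond to interleukin-4 and interleukin-13, Tnc rose (median 0.28). Il4ra, a receptor chain for both cytokines, was at 4.82 to 7.87 CPM in EC-OVA and 5.42 to 9.90 CPM in EC-SAL, too low for the test. Of 30 tested matrix remodelling genes, Tnc and Cthrc1 rose and Timp3 fell (median 0.05). Inhba, which encodes a subunit of activin A, was at 363, 136 and 192 CPM in EC-OVA, against 114, 75.9 and 78.2 CPM in EC-SAL and did not pass (log2 fold change 1.36, adjusted p = 0.0608). Among members with at least 2 trio genes the Inhba change was -0.73. Of 5 tested dermal papilla markers Crabp1 rose (median 0.01), and the summed papilla list lay at 617.7 to 724.8 CPM in EC-OVA and 551 to 648.9 CPM in EC-SAL members. Igfbp5, another binding protein of insulin-like growth factors, was at 83.6, 62.3 and 45.6 CPM in EC-OVA and 396, 72.6 and 154 CPM in EC-SAL and did not pass (log2 fold change -1.72, adjusted p = 0.095). None of 6 tested genes of the sheath cup and sheath progenitors passed (median -0.32).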

How the data were processed

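The deposited data are 10x Genomics 3′ (v2 chemistry) gene-by-barcode matrices of raw UMI counts for 6 libraries, made with Cell Ranger 3.1.0 per the file headers, with STAR and the mm10 build per the submitters' processing notes. The authors deposited counts of 32285 genes for 38206 barcodes, and the filter behind these barcodes is not given in the sources used here. The members, neighbouring classes and gene lists were chosen with earlier results of these data known.

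Barcodes with at least 300 genes and at most 15% mitochondrial UMIs were kept, 11482 in EC-OVA and 14290 in EC-SAL, with median UMIs per library of 4931 to 5334 and 4567 to 4966.5. Libraries shared 14 to 37 kept barcodes per pair. No doublet caller was applied in the main analysis, and removal of high Scrublet scores was an alternative, since Scrublet's own threshold marked almost none.

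UMIs were summed per library over members and tested with edgeR 4.0.16 (R 4.3.3; TMM scaling, filterByExpr, quasi-likelihood test, Benjamini-Hochberg adjustment over all genes tested, threshold 0.05). A difference in response is the interaction of class and treatment on 12 sums with library as a block. Fold changes are EC-OVA over EC-SAL. Shares were compared with a two-sided exact permutation test (scipy 1.17.1) and have 95% Clopper-Pearson intervals per library of 1.04% to 1.80%, 0.846% to 1.53% and 1.09% to 1.91% in EC-OVA and 0.552% to 1.04%, 0.439% to 0.928% and 0.678% to 1.28% in EC-SAL, which cover counting error only. Named genes were the 12 largest rises and falls past the threshold without overlap and with at least 20 CPM, up to 4 genes of each list, the sheath genes, and the 6 largest differences in response each way, plus others named after their values were seen (Cdk1, Stmn1, Hmgb2, Birc5, Cdc20, Tnfaip6, Ctsl, Anxa8, Vamp5, Itgbl1, Pdgfrl, the replication genes and genes too low for the test). A gene that this rule picks is not reported here. The fit was tested on simulated counts. Alternatives were DESeq2 1.42.0, upper-quartile scaling, no filter on low counts, a 10% mitochondrial limit, a stricter and a looser rule, a replicate block, thinning and leaving out each library; members with under 10 keratin UMIs, with 2 trio genes and with Igfbp2 were added after seeing the data. Gene coordinates are from GENCODE M21 and promoter sequences from RefSeq on GRCm38.p6.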

Additional observations from a re-analysis of the deposited data

Results flagged for a closer look

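The changes below differed between the members and a neighbouring class by a test of the difference itself (edgeR interaction, Benjamini-Hochberg adjusted over all genes tested), and all compare EC-OVA over EC-SAL on the log2 scale. They are given as values with no explanation.

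Against pericyte-rule cells the members responded more upward for Rarres2 (difference 5.39), Cilp (4.85), Cxcl2 (3.13), Cxcl1 (2.48), Rgs16 (1.77) and Il6 (1.43). They responded more downward for Myoc (-7.23), Sprr1a (-5.13), Ccl20 (-4.30), Ednrb (-2.98), Bmp1 (-2.32) and Hk2 (-2.08). Cilp, a matrix protein of cartilage and fibroblasts, had 117 UMIs in EC-OVA and 59 in EC-SAL members and 1 and 22 UMIs in the pericyte-rule cells of the same groups, and its difference was -0.14 without EC-SAL library 1. Myoc, which encodes myocilin, had 4 UMIs in EC-OVA and 45 in EC-SAL members, against 81 and 4 UMIs in pericyte-rule cells. Many of these calls rested on single libraries. The Myoc difference was -2.89 (adjusted p = 0.755) without EC-OVA library 1 and lost its call without EC-SAL library 3 (0.0588), and Bmp1 lost its call without EC-SAL library 1 or 3 (0.134 and 0.0759). Hk2 lost its call without EC-OVA library 1 or 2 or EC-SAL library 1 or 2 (up to 0.173), Rgs16 without EC-OVA library 2 or EC-SAL library 1 or 2 (up to 0.138), and Cilp without any library except EC-SAL 3. The Sprr1a difference lost its call without EC-OVA library 1 (adjusted p = 0.617) or EC-SAL library 2 (0.0824), Ccl20 without EC-OVA library 1 (0.0554) and Il6 without EC-OVA library 1 (0.0661) or EC-SAL library 1 or 2 (both 0.0764). With 2 or more trio genes the difference was 2.44 for both Rarres2 (adjusted p = 0.0898) and Cxcl2 (0.0644) and 1.09 for Il6 (0.379).

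Against Lrrc15 fibroblast-rule cells the members responded more upward for Rarres2 (4.25), Crabp1 (3.53), the agouti gene a (3.33), Cxcl2 (2.99), Cxcl1 (2.43) and Il1rl1 (2.04). They responded more downward for G0s2 (-5.22), Mt4 (-4.80), Krt1 (-4.06), Ly6g6c (-3.81), Calm4 (-3.78) and Sprr1b (-3.76). Most of the downward genes are epidermal and low in the members. G0s2 had 1 UMI in EC-OVA and 14 in EC-SAL members, Mt4 had 3 and 36, and Sprr1b had 6 and 38. The agouti gene had 51 UMIs in EC-OVA and 9 in EC-SAL members, and its difference was 1.81 (adjusted p = 0.463) without EC-SAL library 2. The Il1rl1 difference lost its call without EC-OVA library 3 (adjusted p = 0.0799), EC-SAL library 2 (0.123) or EC-SAL library 3 (0.127), and Crabp1 without EC-SAL library 3 (0.0695). Among members with under 10 keratin UMIs the differences of Crabp1 (0.225) and Il1rl1 (0.0576) lost their calls. Those of Krt1 (0.509), Ly6g6c (0.453) and Calm4 (0.0709) did so too. With 2 or more trio genes the Rarres2 difference lost its call (adjusted p = 0.599) and that of Cxcl2 was 2.28 (0.104), and under the stricter rule that of Cxcl1 was 1.16 (0.112). Each of the 6 downward calls was lost without single libraries. The differences were -3.45 for G0s2 (adjusted p = 0.747), -3.05 for Mt4 (0.455) and -3.13 for Sprr1b (0.274) without EC-OVA library 3, -1.99 for Krt1 (0.443) and -3.26 for Calm4 (0.0613) without EC-SAL library 1, and -2.40 for Ly6g6c (0.546) without EC-SAL library 2. Mt4 and Sprr1b also lost their calls without EC-SAL library 1 or 2 (up to 0.227 and 0.115), Krt1 without EC-OVA library 2 or 3 (0.133 and 0.141), and Ly6g6c without EC-OVA library 2 or 3 or EC-SAL library 1 (up to 0.244).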

How the results depend on the processing

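The log2 ratio of the member share over kept barcodes was 0.61 to 0.81 under the 7 other settings and 0.64 to 0.91 when any 1 library was left out. Over collagen-expressing barcodes it was 0.28, 0.12 under the stricter rule (exact permutation p = 0.7), 0.27 to 0.31 under the other 3 settings run, and 0.17 to 0.41 when any 1 library was left out. The counts of 34 higher and 20 lower genes in members were 29 and 18 with DESeq2, 34 and 20 with upper-quartile scaling, 42 and 20 at a 10% mitochondrial limit, 30 and 24 without high doublet scores and 25 and 21 in members with Igfbp2. They were 153 and 96 with no filter on low counts, 4 and 8 under the stricter rule, and 14 to 42 and 4 to 40 when any 1 library was left out. With at least 2 trio genes they were 19 and 14, and the lower count was 31 without the Lrrc15 requirement. Of the named genes called in members, 28 of 35 still tested lost the call under the stricter rule, 16 of 40 with at least 2 trio genes, 15 of 41 with Igfbp2, 6 of 44 without the Lrrc15 requirement and 7 to 26 of 44 without single libraries, with 26 lost without EC-SAL library 1 and 23 without EC-SAL library 2.

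Same-numbered libraries had small positive correlations of deviations (0.071, 0.0588 and 0.0113), against -0.0873 to 0.0303 for the other pairs. EC-SAL libraries 1 and 2 correlated best with the EC-OVA library of the same number, and EC-SAL library 3 with EC-OVA library 2. Correlations this small do not settle whether the libraries were paired. With the replicate block the members had 61 higher and 65 lower genes, and 32 genes were lower in pericyte-rule and 47 in fibroblast-rule cells.

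In pericyte-rule cells, 56 higher and 15 lower genes became 117 and 79 with no filter, and 23 to 50 and 9 to 17 without single libraries. In fibroblast-rule cells, 91 and 27 became 255 and 84, and 30 to 100 and 12 to 22. For the difference from pericyte-rule cells, 8 higher and 22 lower became 67 and 83 with no filter, 18 and 42 in members with under 10 keratin UMIs, 16 and 57 with at least 2 trio genes, 6 to 16 and 14 to 31 without single libraries, and 1 higher under the stricter rule. For the difference from fibroblast-rule cells, 10 higher and 42 lower became 49 and 122 with no filter, 6 and 31 with under 10 keratin UMIs, 1 and 27 under the stricter rule, 4 and 58 with at least 2 trio genes, and 5 to 15 and 8 to 68 without single libraries. The cause of these shifts was not tested.

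Some values turned their sign. Bmp1 was at 0.0047 with no filter and -0.19 to 0.13 without single libraries, Rgs2 at 0.11 without the Lrrc15 requirement, and Mmp11 at -0.15 under the stricter rule. Cilp was at -0.31 under the stricter rule, -0.37 with at least 2 trio genes and -0.16 to 1.83 without single libraries, and its difference from pericyte-rule cells was -0.14 to 6.46. With at least 2 trio genes Inhba was at -0.73, Ctsl at -0.17, and the differences from fibroblast-rule cells were -0.59 for Crabp1 and -0.095 for Il1rl1. Without single libraries Eng was at -0.063 to 0.41 and Tead1 at -0.18 to 0.46. Member sums of 303104 to 635750 UMIs limit the tests to 5326 genes, and receptor and cytokine genes of a few UMIs cannot be read at this depth.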
